A study of Homo sapiens with 6 samples.

Results

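Of 6 Affymetrix arrays of H295R/TR SF-1 cells, 2 had a narrower spread of log2 signals than the 4 others, and the genes that set these 2 apart are described here. The line H295R derives from a human carcinoma of the adrenal cortex, and in the subclone used doxycycline induces SF-1, a nuclear receptor encoded by NR5A1. All cells were grown for 72 h in medium with NuSerum, ITS+ and, per the methods of the study, blasticidin and zeocin. Of the arrays, 3 were labelled basal and 3 were labelled Dox, with doxycycline at 1 µg/mL. Arrays are named by label and order of deposition, so that basal 2 bears the title C_NT_01 and Dox 3 the title C_NT_DOX_04. Basal 1 and Dox 1 bear titles without C_NT and the treatment labels control and SF-1 overexpression.

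The members were chosen by the measured values alone, as the 2 arrays with the smallest standard deviation (SD) over all 54613 probe sets. That SD was 2.36 in basal 2 and 2.37 in Dox 3, against 2.43 in basal 3, 2.43 in Dox 1, 2.44 in Dox 2 and 2.44 in basal 1. The step from Dox 3 to the nearest of the 4 others was thus small beside the SD itself. The medians hardly moved, from 5.56 to 5.6 over the 6 arrays. The upper quartile was 7.51 in basal 2 and 7.55 in Dox 3, below the 7.62 to 7.64 of the 4 others, and the lower quartile was higher at 4.19 and 4.17 against 4.08 to 4.09. Each label gave 1 of the 2 arrays, so the comparison of the 2 with the 4 is balanced over basal and Dox. Because every gene of these arrays entered the choice, the differences between the 2 and the 4 are given as descriptions with no test. Whether the cultures, the RNA or the handling of the arrays differed cannot be told apart from these values, and the arrays are therefore called by their narrower spread and not by a state of the cells.

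The SD of the difference over all probe sets was 0.134 between basal 1 and Dox 1 and 0.149 between basal 3 and Dox 2, with 0 genes differing by 2-fold in either pair, although the arrays of each pair bear opposite labels. Between arrays of different pairs among the 4 it ran from 0.258 to 0.265, with 315 to 328 genes over 2-fold. Between basal 2 and Dox 3 it was 0.318, with 332 genes over 2-fold, about as many as between those pairs. Between either of these 2 and any of the 4 others it ran from 0.389 to 0.461, with 354 to 945 genes. Basal 2 and Dox 3 were therefore nearer to each other than to any other array, but less alike than the members of the cross-label pairs. The study's methods call the replicates biological, but no label ties an array to a culture of its own, so p-values measure the spread between arrays, and 6 arrays limit the precision. Basal 2 was nearest among the 4 to Dox 1 (0.413) and Dox 3 was nearest to basal 3 (0.389).

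At the level of RNA, the induced gene did not separate the labels. NR5A1, measured by 1 probe set, was at 5.84, 5.92 and 6.30 on the arrays labelled basal and at 5.55, 6.21 and 6.41 on those labelled Dox. Dox 1 had the lowest value and Dox 3 the highest, and the labels overlapped, with a Dox minus basal difference of 0.034 ± 0.24 (SE, limma adjusted p = 1). Whether this probe set reads the induced copy was not tested. The study reported SF-1 overexpression after doxycycline by immunoblot, which measures protein and not RNA. It also reported genes regulated by this overexpression, at 2-fold and by criteria unlike the adjusted p used here. With the near-identical pairs of opposite label, the overlap in NR5A1 limits what any value by label means. Basal and Dox are therefore used here only as the names that the labels give.

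As background, adrenocortical cells in culture combine steroid synthesis, which runs from cholesterol through side-chain cleavage to cortisol and androgens, with active growth. Cell lines of this kind also express genes of adhesion and matrix that are usual in mesenchymal cells. The hyaluronan receptor CD44, the matrix proteoglycan versican (VCAN) and the transcription factor ZEB1 are among the genes by which a mesenchymal state is commonly described. A 3′ expression array reads each gene through probe sets, groups of short probes mostly placed near the 3′ end of the transcript, so that a gene with several probe sets is measured several times.

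The 6 genes given as markers of the 2 arrays were chosen with earlier results of these data known. That all 6 lay outside the range of the 4 others is therefore no independent result. ANXA1, the phospholipid-binding annexin A1, was at 7.0 in basal 2 and 5.86 in Dox 3, against 10.23, 9.20, 10.19 and 9.26 in basal 1, basal 3, Dox 1 and Dox 2. This was the lowest difference of all 19775 genes, 9.78-fold (log2 -3.29), and it was deeper inside the Dox label (-3.87) than inside the basal label (-2.71). VCAN was at 8.10 and 8.17 in the 2 arrays and between 10.14 and 10.79 in the 4 others. CD44 was at 6.54 and 6.18 against 8.66 to 8.80. ZEB1, a repressor of epithelial genes, was at 6.49 and 7.13 against 8.61 to 9.09. These 4 genes were thus lower in both arrays, whichever label they carried. In RNA from bulk cultures, fewer cells that express a gene and less RNA of it per cell cannot be told apart. In the other direction, GNAI2, an inhibitory G-protein alpha subunit, was at 10.73 and 10.87 against 8.51 to 8.77, and PKM, the pyruvate kinase of glycolysis, at 11.56 and 11.36 against 9.32 to 9.49. The SD of the 4 others was 0.56 in ANXA1, 0.32 in VCAN, 0.24 in ZEB1, 0.11 in GNAI2, 0.073 in CD44 and 0.071 in PKM.

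**Figure D1:**
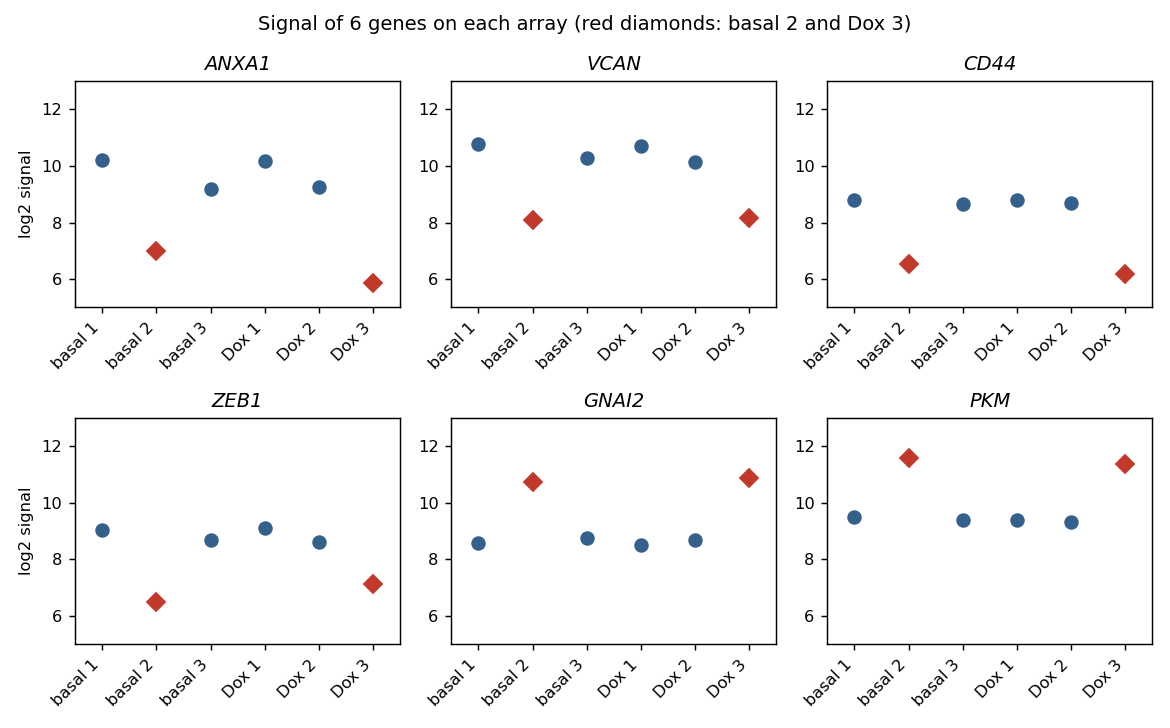
Log2 signal (y axis) of 6 genes on each of the 6 arrays (x axis), with red diamonds for basal 2 and Dox 3 and blue circles for the 4 others, 1 point per array. ANXA1, VCAN, CD44 and ZEB1 lie lower and GNAI2 and PKM higher on the 2 arrays than on any of the 4 others.

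Such separation was common on these arrays. Each gene was represented by its brightest probe set, and 10278 of 19775 genes (52%) had both values wholly outside those of the 4 others, 5013 above (25.4%) and 5265 below (26.6%). With a difference of at least 2-fold as well, 105 genes were higher (0.531%) and 309 were lower (1.56%), 414 in all (2.09%). Of these, 62 higher and 173 lower genes differed by 2-fold inside each label. At 4-fold there were 5 higher and 14 lower. The 309 lower genes were well expressed in the 4 others, at a median of 8.28 against 6.83 for all genes, and in 139 of them the mean on the 2 arrays lay below the median signal of all genes, 6.81. The difference was larger in the basal label in 47 of the 105 higher genes, and in the Dox label in 125 of the 309 lower genes. Without Dox 3 the lower genes numbered 552 and the higher ones 137, and without basal 2 they numbered 350 and 154, but each of these settings also leaves a single array on that side. Since genes that separate are frequent, the counts of gene groups below are read against these shares.

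Basal 2 was also set against basal 1 and basal 3, and Dox 3 against Dox 1 and Dox 2. Since the cross-label pairs are near-identical, these comparisons have in effect the same reference, so the values inside both labels are given side by side and no correlation between them is given. ANXA1 differed by -2.71 inside the basal label and -3.87 inside the Dox label, VCAN by -2.43 and -2.26, and CD44 by -2.19 and -2.56. ZEB1 differed by -2.37 and -1.72, GNAI2 by 2.07 and 2.28 and PKM by 2.12 and 2.01.

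**Figure D2:**
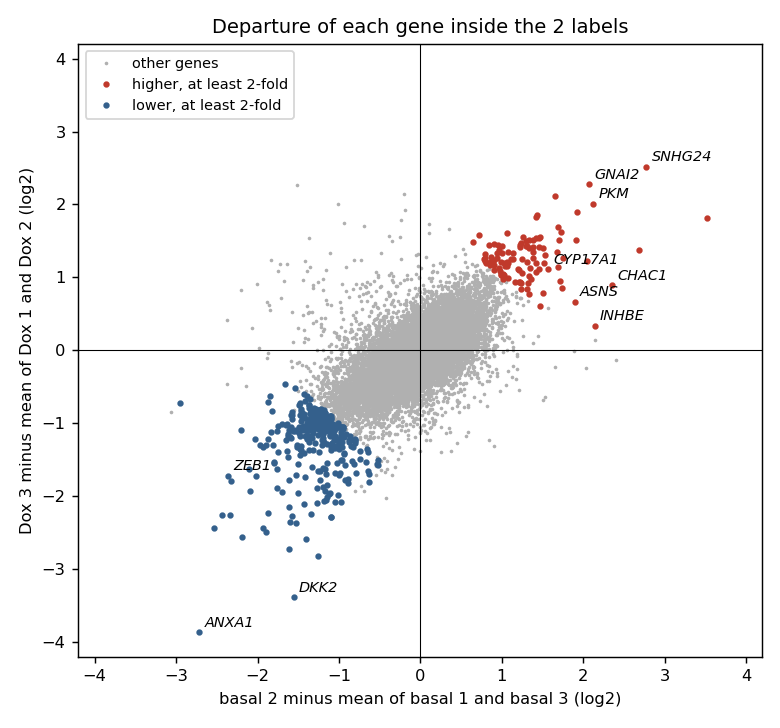
Difference of basal 2 from the mean of basal 1 and basal 3 (x axis, log2) against that of Dox 3 from the mean of Dox 1 and Dox 2 (y axis, log2), 1 point per gene, with the 105 higher genes in red and the 309 lower genes in blue. ANXA1 lies at -2.71 and -3.87 and GNAI2 at 2.07 and 2.28, while ASNS, CHAC1 and INHBE lie nearer to the x axis.

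The interaction of label and array set was fitted in limma, but each label holds 1 array of narrow spread. The 2 residual degrees of freedom therefore come from the 4 other arrays alone, and the fit uses values by which the arrays were chosen, so it carries no error for the narrow-spread arrays and its counts are a description. Of 19775 genes, 0 passed an adjusted p of 0.05 and 1624 had an unadjusted p under 0.05 (8.21%). The Dox difference minus the basal difference was -0.37 for CD44, -1.15 for ANXA1, 0.17 for VCAN and -0.11 for PKM. The labels themselves, 3 arrays against 3, called none of these genes. Between Dox and basal 0 genes passed in limma, 109 (0.551%) had an unadjusted p under 0.05, and with array set as a block these counts were 0 and 313 (1.58%). Among the 414 genes at least 2-fold higher or lower on the 2 arrays, none had an unadjusted p under 0.05 by label. Their absolute label difference had a median of 0.11. They were picked for a difference that lies inside each label, which widens the error of the label test. The lack of low p-values by label thus follows from the choice, and nothing is concluded from it. GNAI2 differed by label by -0.00021 ± 0.79 and ANXA1 by -0.38 ± 1.25 (SE, limma adjusted p = 1 for each), with errors this wide because the narrow-spread arrays sit in both groups.

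The size of the difference went with the level of a gene. With the genes split by level into 10 groups of equal size, the median difference was 0.086 in the dimmest group, 0.056 in the fourth, -0.048 in the sixth and -0.16 in the ninth. Dim genes were on balance slightly higher and bright genes slightly lower on the 2 arrays, as the narrower spread implies. These shifts are small beside 2-fold. After quantile normalization, which gives all arrays the same spread, the medians of these groups lay between -0.050 and 0.043, and 143 genes were higher and 233 lower, among them 103 of the 105 and 227 of the 309. The share of higher genes thus rose from 25.4% to 38.0% of the total, and to 37.9% after removal of the trend with level.

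**Figure D3:**
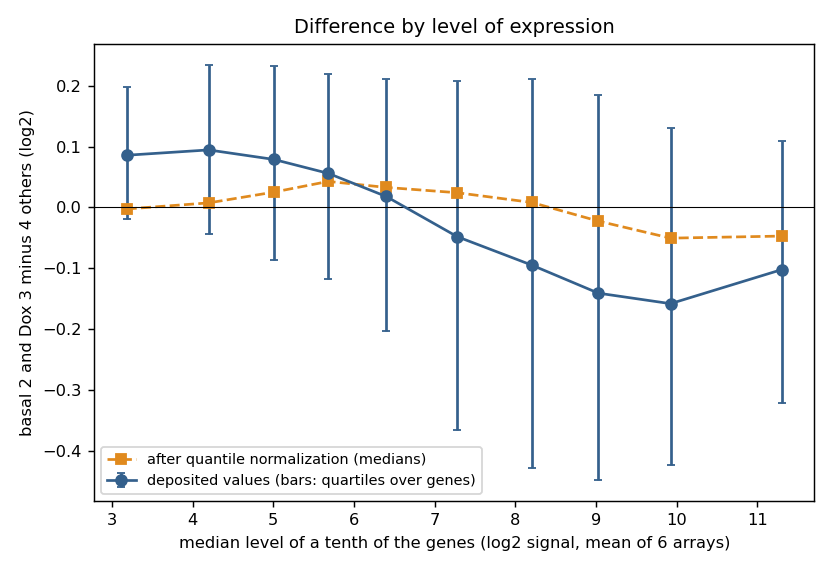
Median difference of the 2 arrays from the 4 others (y axis, log2) in 10 equal groups of genes ordered by mean level (x axis, log2 signal), for the deposited values with bars for the quartiles over genes and for quantile normalized values. The deposited medians run from 0.095 in the second group to -0.16 in the ninth.

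The largest differences upward are given first, for genes whose mean on the 2 arrays reached the median signal. This left out LINC01986 and LOC101928045, which were dimmer. SNHG24, a small nucleolar RNA host gene, was at 9.04 in basal 2 and 8.72 in Dox 3, and between 5.98 and 6.55 in the 4 others, so that it differed by 6.26-fold. GNAI2 differed by 4.51-fold and PKM by 4.18-fold. PPP2R1A, the scaffold subunit of protein phosphatase PP2A, was at 10.77 and 10.65 against 8.71 to 8.97 (3.76-fold). UBA1, the main enzyme that activates ubiquitin, was at 10.71 and 11.03 against 8.82 to 9.11 (3.69-fold). In each of these genes the 2 arrays lay close to each other and well clear of the 4 others.

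GET3, an ATPase that targets tail-anchored proteins to the endoplasmic reticulum, differed by 3.27-fold, the actin-binding profilin PFN1 by 3.22-fold, the epoxide hydrolase EPHX1 by 3.19-fold, the anion exchanger SLC4A2 by 3.13-fold and the kinase CDK16 by 3.08-fold. In PFN1 the difference was the same inside both labels, 1.69 and 1.69. LY6E, a membrane-anchored protein, differed by 2.04 in the basal label and 1.22 in the Dox label. CHAC1, which degrades glutathione, was 3.08-fold higher with a larger difference in the basal label, 2.35 against 0.90.

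The largest differences downward, by the same rule, followed that of ANXA1, and GREB1 and COL25A1 were left out for their low signal. DKK2, a secreted modulator of Wnt signalling, was at 5.97 in basal 2 and 4.14 in Dox 3, against 8.64 and 6.41 in basal 1 and basal 3 and 8.66 and 6.39 in Dox 1 and Dox 2. In this gene the 4 others formed a high and a low pair, and the 2 arrays lay below both. COL3A1, a fibrillar collagen, followed the same pattern, at 5.98 and 5.47 against 8.75, 7.09, 8.74 and 7.08. ENPP2, the secreted enzyme autotaxin, was at 10.33 and 8.81 against 12.34, 10.83, 12.38 and 10.88. ADGRG2, an adhesion G-protein-coupled receptor, was at 8.54 and 7.38 against 11.02, 9.29, 10.96 and 9.26 (4.50-fold lower). The pairs are the cross-label pairs named above, so in these genes the 4 others were apart among themselves too.

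In COLEC12 and DACH2 the 4 others were close together. COLEC12, a collectin of the scavenger receptor type, was at 5.97 and 5.41 against 7.85 to 7.95 (4.58-fold lower). DACH2, a transcription cofactor, was at 7.61 and 8.20 against 9.91 to 10.02 (4.17-fold lower). ST8SIA4, a polysialyltransferase, was at 6.02 and 5.62 against 7.53 to 8.22 (4.14-fold lower). PGM2L1, a glucose bisphosphate synthase, was at 5.76 and 5.77 against 7.01 to 8.45 (4.03-fold lower). In these last genes the cross-label pairs again lay apart.

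Other probe sets of the same genes did not all show the difference. VCAN was measured by 5 probe sets, and all 5 lay wholly below, by -2.35 to -1.95. CD44 has 13, of which 12 were lower and 1 was higher, at 0.43 in a probe set of low signal. Only 1 of the 13 lay at or above the median signal of all genes, and the 5 that were lower by at least 2-fold differed by -2.37 to -1.08. Both probe sets of ENPP2 were lower, by -2.13 and -2.04. Of the 4 probe sets of ZEB1, the brightest differed by -2.04 and the 3 others, all of low signal, by -0.54, 0.06 and 0.44. The other probe set of ANXA1 was near 3 on all arrays and differed by -0.089. The second probe set of PKM was higher by 0.52 and lay wholly above, so that 2.06 and 0.52 both stand for this gene. CDK16 had 2 probe sets at 1.63 and 1.62 and 1 at -0.15. GNAI2 has 1 probe set.

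MALAT1, an abundant nuclear RNA, differed in both directions. Its brightest probe set was at 8.33 in basal 2 and 8.78 in Dox 3, against 9.97 to 10.45 in the 4 others (-1.67). Another was at 9.85 and 10.80 against 8.70 to 9.15 (1.42), and the third at 8.55 and 9.50 against 7.35 to 7.90 (1.42). Of its 12 probe sets, 7 were lower and 5 were higher, and 3 lay wholly below and 3 wholly above. A single direction for this RNA therefore cannot be given. Over the 309 lower genes, 79 had another probe set at or above the median signal, and in 65 of them all such probe sets were lower too, 28 with one that was 2-fold lower. Over the 105 higher genes these numbers were 21, 18 and 6. These other probe sets differed by a median of -0.57 and 0.51, less than the brightest ones by which the genes had been picked. At any signal, 239 lower genes had several probe sets, and 136 of them had a probe set of opposite sign. For the higher genes these numbers were 46 and 14.

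**Figure D4:**
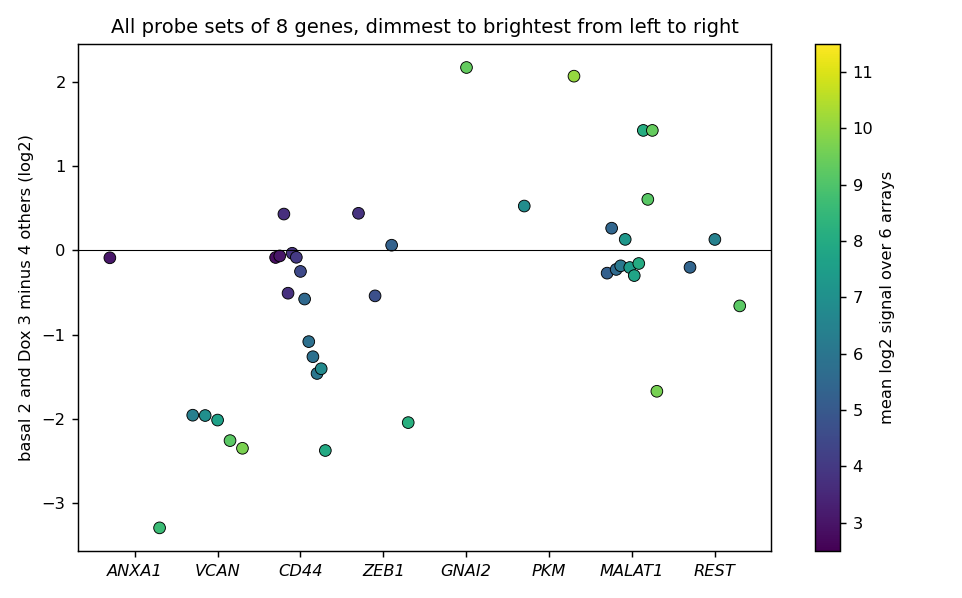
Difference of the 2 arrays from the 4 others (y axis, log2) for every probe set of 8 genes (x axis), ordered from dimmest to brightest from left to right within a gene and coloured by mean log2 signal. All 5 probe sets of VCAN are lower, while those of MALAT1 run from -1.67 to 1.42, those of CD44 from -2.37 to 0.43 and those of ZEB1 from -2.04 to 0.44.

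The genes that were higher and lower also differed in the length of DNA they span. The median span in the RefSeq annotation of GRCh38.p14 was 12.5 kb for the higher genes (104 of 105 with a value), 66.6 kb for the 309 lower genes and 24.7 kb for all genes. Among genes at or above the median signal, the median span was 65.6 kb for a difference of -1 or less, 35.7 kb between -0.5 and 0, 21.0 kb between 0 and 0.5 and 11.2 kb at 1 or more. Over 9910 genes the rank correlation of difference and span was -0.323, -0.333 inside the basal label and -0.262 inside the Dox label, and it was -0.313 after quantile normalization. It is a correlation across genes measured on the same arrays by which the 2 were chosen, and given as a description. The values inside the labels have in effect the same reference. Span was not the only such property. Of the higher genes with a known chromosome, 22.1% lay on chromosome 19, against 2.27% of the lower genes and 6.69% of all genes. The part of span or chromosome in the differences was not tested further.

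**Figure D5:**
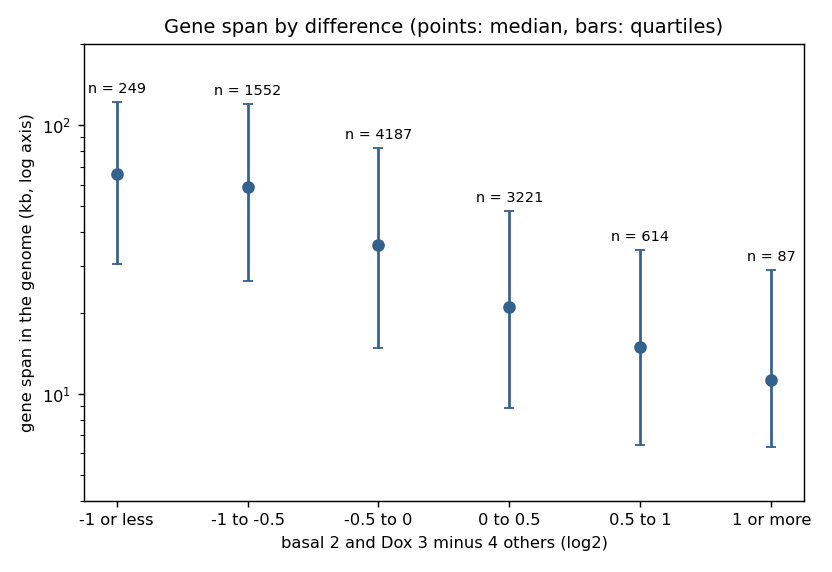
Span of genes in the genome (y axis, kb, log axis) by difference of the 2 arrays from the 4 others (x axis, log2), for genes at or above the median signal, as medians with bars for the quartiles. The median falls from 65.6 kb in the genes lower by 2-fold or more to 11.2 kb in those higher by 2-fold or more.

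Matrix and adhesion genes were mixed when the whole lists were read. Of 22 measured genes of hyaluronan, proteoglycans and their receptors, 6 were wholly below and 5 wholly above, beside 26.6% and 25.4% of all genes, and the median difference was -0.074 against 0.0087 for all genes. Besides CD44 and VCAN, the glypican GPC4 was at 6.76 and 7.86 against 8.62 to 9.30. HAS2, a hyaluronan synthase, was lower by -1.04 at signals below the median of all genes. In the list of basement membrane, collagens and laminins, 9 of 24 were wholly below and 2 wholly above (median -0.22). After COL3A1 the lowest were NID1, the basement membrane protein nidogen (-1.11), COL5A1 (-1.11) and COL6A1 (-0.86, but 0.011 in the median over its probe sets). COL5A1 was at signals below the median of all genes.

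Of 24 mesenchymal factors and cytoskeletal genes, 7 were wholly below and 3 wholly above (median -0.11), with ANXA1 and ZEB1 the only ones 2-fold lower. The tropomyosin TPM2 differed by -0.65 and fibronectin (FN1) by -0.62, the latter at signals below the median of all genes. Of 21 integrin and focal adhesion genes, 6 were wholly above and 4 wholly below (median 0.054), led by talin (TLN1) at 7.68 and 7.88 against 6.51 to 6.93. The lists that name adhesion and mesenchymal state therefore held members on both sides.

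Glycolytic enzymes other than PKM differed by less. Of 20 measured members, 9 were wholly above and 3 wholly below (median 0.044), beside 25.4% and 26.6% of all genes. GPI, the phosphoglucose isomerase, was at 12.51 in basal 2 and 12.55 in Dox 3 against 11.59 to 11.67 (0.90), ENO1, the enolase, at 11.58 and 11.52 against 10.67 to 10.74 (0.85, but -0.21 in the median over its probe sets), and the aldolase ALDOC was higher by 0.65. The hexokinase HK2 differed by -0.44 and lay wholly below. None of the 17 measured hypoxia-inducible genes was wholly above and 6 were wholly below, beside 25.4% and 26.6% of all genes. NDRG1 differed by -1.12 but was split between the cross-label pairs, and Dox 3 at 7.28 was close to the lower pair (7.50 and 7.58). Among the 24 G-protein subunits, 8 were wholly above and 5 wholly below. GNB1, a beta subunit, was higher by 0.74, GNB4, another beta subunit, lower by -0.82 (but 0.29 in the median over its probe sets), and the gamma subunit GNG2 lower by -1.69, with GNG2 again split between the cross-label pairs.

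Genes of mitosis were lower in most members. Of 24 genes of the G2 and M phases, 17 were wholly below and 3 wholly above, beside 26.6% and 25.4% of all genes, with a median of -0.36. All 24 were at or above the median signal, and genes at that level had a median of -0.11. CENPE, a kinesin of the kinetochore, was at 8.32 in basal 2 and 8.75 in Dox 3 against 9.66 to 9.74 (-1.16). CENPF, another kinetochore protein, was at 9.66 and 10.23 against 10.93 to 11.07 (-1.06). NUSAP1, which bundles spindle microtubules, differed by -0.67 (but 0.12 in its other probe set) and the phosphatase CDKN3 by -0.63. The mitotic kinase PLK1 (0.25) and the survivin gene BIRC5 (0.17) were among those wholly above. MKI67, the Ki-67 antigen, was at 8.37 in basal 2 and 9.11 in Dox 3 against 9.14 to 9.25, so Dox 3 hardly left the range.

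In the G1 and S phase list, 12 of 24 were wholly below and 7 wholly above (median -0.054), with the cyclin-dependent kinase CDK4 higher by 0.64. CDK6 was lower by -0.50 in its brightest probe set and by -0.41 in another, but a further bright one lay wholly above (0.87). The ribonucleotide reductase subunit RRM2 differed by -0.67 and the replication licensing factor CDC6 by -0.62. The part that growth of the cultures had in these values was not tested.

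Of 26 splicing factors, 18 were wholly below and 2 wholly above (median -0.21), beside 26.6% and 25.4% of all genes. All 26 were at or above the median signal, where the median of all genes was -0.11, and their median was -0.066 when the arrays were scaled to equal SD. SRSF5 was at 9.47 and 9.77 against 10.67 to 10.71 (-1.07). RBM25 and LUC7L3, both splicing regulators, differed by -0.75 and -0.74 in their brightest probe sets, but by 0.32 and 0.27 in the median over their probe sets. HNRNPA2B1 differed by -0.72. Of 9 measured nuclear-retained RNAs, 4 were wholly below and none above, including TUG1 (-0.94), MEG3 (-1.02, but 0.17 in the median over its probe sets), EPB41L4A-AS1 (-0.51) and MALAT1, whose probe sets lay on both sides. REST, which encodes the repressor NRSF/REST, was at 8.71 and 8.79 against 9.32 to 9.46 in its brightest probe set (-0.66), and its 2 others differed by -0.20 and 0.13.

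Genes of the amino acid and endoplasmic reticulum stress response had the highest median of the lists of 10 or more measured genes, 0.56 against 0.0087 for all genes. Of the 21 genes, 10 were wholly above and 3 wholly below, beside 25.4% and 26.6% of all genes. Many genes of the list are targets of the transcription factor ATF4. ASNS, the asparagine synthetase, was at 11.62 in basal 2 and 10.49 in Dox 3, against 9.69 to 9.83 in the 4 others. PHGDH, which begins serine synthesis, was at 11.72 and 11.19 against 10.52 to 10.58. ATF4 itself was at 12.36 and 12.19 against 11.59 to 11.84, and PSAT1, the next enzyme of serine synthesis, at 12.82 and 12.11 against 11.75 to 11.94.

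The difference was mostly that of basal 2. The list median was 0.80 inside the basal label and 0.10 inside the Dox label. TRIB3, an ATF4 target, differed by 1.13 in the basal label and 0.11 in the Dox label, and DDIT3, which encodes CHOP, by 1.38 and 0.10. INHBE, an inhibin beta subunit that belongs to no list and was singled out after its values were seen, was at 7.61 in basal 2 and 6.00 in Dox 3 against 5.46 to 5.67. The Dox difference minus the basal difference was -1.80 for INHBE, -1.23 for ASNS and -1.02 for TRIB3, each from 1 array of narrow spread per label. Of the chaperones of the endoplasmic reticulum, CALR was higher by 0.66, while HSPA5, which encodes BiP, differed by -0.15 and lay wholly below. The degradation factor EDEM1 also lay wholly below (-0.57). The named enzymes of amino acid synthesis were thus wholly above, and the named chaperones lay on both sides.

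Markers of the adrenal cortex were in part bright and in part dim on all 6 arrays, with 7 of 18 steroidogenic genes and 6 of 13 lineage factors and receptors below the median signal. The dim ones included CYP11B1, HSD3B1, MC2R and NR5A1. Among the bright ones, STAR, CYP11A1, FDX1 and the lipoprotein receptor SCARB1 of the lineage list were at 10.48 or more on all 6 arrays, and DLK1 between 13.98 and 14.03. CYP17A1, the enzyme of 17-hydroxylation and of androgen formation, was at 9.56 in basal 2 and 8.99 in Dox 3, against 7.83 to 8.13 (2.53-fold higher). CYP11A1, which cleaves the side chain of cholesterol, was at 11.66 and 11.90 against 10.48 to 10.91 (2.14-fold higher). STAR, which carries cholesterol into mitochondria, was at 11.27 and 10.73 against 10.97 to 11.59 and overlapped. HSD3B2, which forms the first active steroid ketones, was at 7.89 in basal 2 and 6.07 in Dox 3 against 5.0 to 6.49, so that basal 2 alone left the range. Lower were the steroid sulfatase STS (-0.81, but 0.12 in the median over its probe sets), CYP11B2 (-0.66) at signals below the median of all genes, and HSD17B4 (-0.32).

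Over the 18 measured steroidogenic genes, 3 were wholly above and 3 wholly below, fewer than the shares of all genes, with a median of 0.019. Among 13 measured lineage factors and receptors, 4 were wholly above and none below (median 0.15), beside 25.4% and 26.6% of all genes. NR5A1, with the values given above, overlapped. The 4 wholly above were WT1 (0.42), SCARB1 (0.41), NR4A1 (0.25, but -0.064 in the median over its probe sets) and INHA (0.12). Of these, WT1 was at 3.66 to 4.21 and INHA at 5.09 to 5.29 over all arrays, below the median signal. Dim genes in general were slightly higher on the arrays of narrow spread. The other probe set of WT1 differed by 0.0029.

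Markers of endothelial and blood cells were mostly dim. Of 13 endothelial markers 12, and of 11 blood cell markers 10, had a mean below the median signal. Their summed linear signal was 653 to 700 and 611 to 616 on the 2 arrays, slightly above the 609 to 642 and 557 to 590 of the 4 others, as the dim genes in general. Of 15 stromal and fibroblast markers, 3 were wholly above and 5 wholly below, with sums of 4152 and 4242 on the 2 arrays against 6650 to 7381. The main contributor was the peptidase MME, at 11.28 and 11.44 against 12.24 to 12.36. Of 15 medullary and neuronal markers, 1 was wholly above and 4 wholly below, with the secretory granule protein CHGB at 7.46 and 6.98 against 8.10 to 9.11. Their sum did not fall on both arrays, at 5092 in basal 2 and 6246 in Dox 3 against 5144 to 5612, and 11 of the 15 lay below the median signal. Of 10 kidney and epithelial line markers, 4 were wholly above and none below, beside 25.4% and 26.6% of all genes, with SIX2 higher by 0.51. Of these 10, 7 had a mean below the median signal, where genes in general were slightly higher on the 2 arrays. In the epithelial list of 18, of which 13 were below the median signal, 5 were wholly above and 4 wholly below. The desmoplakin gene DSP differed by -0.93. The part of other cells in the differences was not tested.

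Genes of general use lay on both sides, and of all genes 25.4% were wholly above and 26.6% wholly below. Of 17 ribosomal protein genes, 1 was wholly above and 6 wholly below, with a median of -0.041. Of 23 respiratory chain subunits, 10 were wholly above and 6 wholly below (median 0.076), led by UQCRC1 of complex III, which was higher by 1.22 inside the basal label and by 1.41 inside the Dox label. Reference genes were split, with ACTB higher by 0.53, GAPDH by 0.23 and YWHAZ lower by -0.33. Heat shock genes had 3 of 12 above and 3 below, with HSPB1 at 11.38 and 11.82 against 10.21 to 10.52. In the cholesterol list 5 of 14 were above and 3 below (median 0.19), with the kinase MVK higher by 0.75 and the sterol carrier STARD4 lower by -0.64. Interferon-induced genes had 3 of 21 above and 4 below, among them IFI44 at -0.997. Of 21 immediate early and ERK feedback genes, 6 were above and 2 below, with the phosphatase DUSP1 at 0.65, JUNB at 0.61 and JUN at -0.56. No member of any of the lists passed by label in limma.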

How the data were processed

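Total RNA was hybridised to 6 Affymetrix HG-U133 Plus 2.0 arrays. The deposited log2 signals of 54613 probe sets were made by the authors with GCRMA, per the submitters' processing notes, and its version is not given in the sources used here. The sources do not say if the 6 arrays went through GCRMA together. Of the probe sets, 41091 (75.2%) have 1 gene symbol, 1801 have several and 11721 have none, and those with 1 symbol were used. Each of 19775 genes was represented by the probe set with the highest mean over the 6 arrays.

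The members and the gene lists were chosen with earlier results of these data known. The 2 arrays were compared with the 4 others by their mean log2 signals, with no test. A gene counted as higher or lower when both arrays lay beyond all 4 others, and as 2-fold at a log2 difference of 1. The label (Dox minus basal) and the interaction of label and array set were tested with limma 3.58.1 under R 4.3.3 (moderated variances with a trend on mean signal) with Benjamini-Hochberg adjustment over all genes at 0.05. The scripts were tested on simulated data. Named genes are the 12 largest differences each way with the higher mean at or above the median signal, the 6 marker genes, and at most 4 members per list wholly above or below. Other members are named to describe a list. Quantile normalization, scaling to equal SD, removal of the trend with level, a filter at the median signal, the median over probe sets, each label alone and leaving out each array were the alternatives. No column of the deposited table was left out. Figures were drawn with matplotlib 3.10.9. Gene spans came from RefSeq and were used as lengths only.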

Additional observations from a re-analysis of the deposited data

Results flagged for a closer look

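In the brightest probe sets of 3 steroidogenic or lineage genes, the array of narrow spread lay above both others in the basal label. It lay below both others in the Dox label. AGTR1, the angiotensin receptor of the adrenal cortex, differed by 0.15 in the basal label and -0.45 in the Dox label, a difference of -0.60. CYB5A, the cytochrome b5 that assists androgen formation, differed by 0.091 and -0.30, a difference of -0.39. Other bright probe sets of CYB5A did not change sign, with -0.17 and -0.44 in one and -0.021 and -0.37 in another. TSPO, the translocator protein, differed by 0.28 and -0.31, a difference of -0.59. Each label holds 1 array of narrow spread, so these differences carry no error of their own. The genes were picked for their opposite signs, and the difference was not tested independently of that.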

How the results depend on the processing

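The counts of genes at least 2-fold higher and lower, 105 and 309, became 143 and 233 after quantile normalization, 137 and 264 after scaling to equal SD, 146 and 239 after removal of the trend with level, and 86 and 235 with a filter at the median signal, where the median difference of all genes is -0.11. The median over the probe sets of a gene gave 105 and 176, so that the share of higher genes was 37.4% in place of 25.4%. These were in part other genes, since 70 of the 105 and 115 of the 309 were kept. The basal label alone gave 143 and 550 and the Dox label alone 168 and 360. Leaving out 1 array at a time gave 100 to 154 higher and 288 to 552 lower genes. The 552 came without Dox 3 and the 154 without basal 2, and such counts rest on a single array on 1 side. The causes of these shifts were not tested.

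Among the 126 named genes wholly above or below, 1600 of 1615 values under these settings kept their sign, and 324 moved by more than the SD pooled within the 2 and the 4 arrays. Scaling to equal SD turned RPL37 to 0.10 and RPS23 to 0.062. The median over probe sets turned COL6A1 to 0.011, EGLN3 to 0.021, ENO1 to -0.21, FBN1 to 0.52, GNB4 to 0.29, LUC7L3 to 0.27, MEG3 to 0.17, NR4A1 to -0.064, RBM25 to 0.32, REST to 0.13, RPS23 to 0.23, SDHD to 0.042 and STS to 0.12. The median of the 6 marker genes, of which 4 were lower and 2 higher, was -2.19 with the brightest probe sets. It was -0.24 with the median over probe sets, which takes in those of low signal. The median of the stress response list was 0.56 with all arrays and 0.15 without basal 2. The limma tests of label and of interaction called 0 genes under each alternative run, with 0 to 255 and 556 to 1726 genes at an unadjusted p under 0.05. The interaction could not be fitted without basal 2 or without Dox 3. No paired analysis was possible because the labels give the groups no shared replicate numbers, and the numbers here follow the order of deposition. Basal 1 and Dox 1, whose titles differ in form from the others, were not fitted as a block of their own.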
